A study of Mus musculus with 6 samples.

Results

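The 7 genes described here encode integrin subunits that bind laminin (Itga3, Itga6, Itga7 and Itgb4) or that form the alpha-4 and alpha-9 receptors (Itga4, Itga9 and Itgb7). They were chosen by gene symbol from the 23337 gene rows of the deposited tables, and all 7 were listed in every table. RNA had been sequenced from stromal fibroblasts cultured from the mammary gland of C57BL/KaLawRij mice aged 7 weeks, with 3 libraries from Sharpin-cpdm animals (genotype cpdm/cpdm, Sharpin deficient) and 3 from wild-type animals (wt/wt). Each library came from the pooled glands of 3 mice, digested with collagenase; the stromal cells were spun out, kept at passage 0 in serum until the plates were full, and cleared of floating cells. The cpdm allele is a spontaneous loss-of-function mutation of Sharpin that affects every cell of the animal. Centrifugation enriches stromal cells and does not purify them, and the labels name no treatment of either group.

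Integrins are heterodimers of an alpha and a beta subunit that link the extracellular matrix to the cytoskeleton. The alpha-3, alpha-6 and alpha-7 subunits pair with beta-1 to form laminin receptors, alpha-6 also pairs with beta-4, and the large cytoplasmic domain of beta-4 binds plectin in the hemidesmosomes of epithelia. Alpha-4 pairs with beta-1 or beta-7 and binds VCAM-1, MAdCAM-1 and fibronectin, mainly on leukocytes, whereas alpha-9 pairs with beta-1 and binds tenascin-C, osteopontin and VCAM-1. SHARPIN is known to bind the cytoplasmic tails of integrin alpha subunits and to hold the receptors in an inactive state. The comparison of genotypes asks whether the transcripts of these receptors differ when SHARPIN is missing; transcript counts say nothing of the activity of the receptors at the surface.

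Gene counts came to between 13570649 and 15656196 per library, and 13442 genes, all 7 members among them, passed the low-count filter. Sharpin stood at 10.5, 9.13 and 9.50 counts per 1000000 gene counts (CPM) in the 3 Sharpin-cpdm libraries, against 24.5, 25.2 and 31.2 CPM in the 3 wild-type libraries, a log2 fold change with the replicate block described next of -1.48 ± 0.12 (edgeR adjusted p 0.00595) and without it of -1.49 (0.272). Values of several libraries are given in the order of their numbers, 1 to 3. Deviations from the group means were shared by libraries with the same replicate number. The tests of Sharpin and the members are therefore given without and with that number as a block. Called means an adjusted p under 0.05 by the quasi-likelihood test of edgeR, where Benjamini-Hochberg adjustment ran over all tested genes. Without the block 0 genes were called (0% of those tested), with 307 at an unadjusted p under 0.05. Genes and lists other than Sharpin and the members are given below with the block unless stated, and by edgeR none of them was called without it. DESeq2 without the block called 10 genes and limma-voom 0. With the block 2.51% of the tested genes were called, 2.11% as lower and 0.394% as higher in Sharpin-cpdm.

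None of the 7 members was called with or without the block, against a background of 2.51% of tested genes with it (2.11% lower, 0.394% higher) and 0% without it, where the adjusted p was 1.00 for all 7. Itga3 and Itga6 were lower in each of the 3 Sharpin-cpdm libraries than in every wild-type library, by 0.44 and 0.32 on the log2 scale with the block, and Itga4 was lower in each of the 3 same-numbered pairs. Itga7, Itgb4, Itga9 and Itgb7 had groups that overlapped and pairs that went both ways. Thus 2 of 7 members had groups that did not overlap, both lower in Sharpin-cpdm, a pattern held by 2.59% of all tested genes; 3.35% were higher without overlap, and 5.94% did not overlap in either direction. Lower in all 3 pairs were 3 of 7 members, against 18.5% of all tested genes, and higher in all 3 pairs were 0 of 7, against 22.7%. The median log2 fold change with the block was -0.20 over the 4 laminin-binding members, beside -0.00168 over all tested genes. Over the other 3 it was the value of Itgb7, -0.21, a gene of few counts. Without pair 2 the middle value of those 3 was -0.44, again of Itgb7, and without pair 3 it was -0.01, of Itga9.

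**Figure D1:**
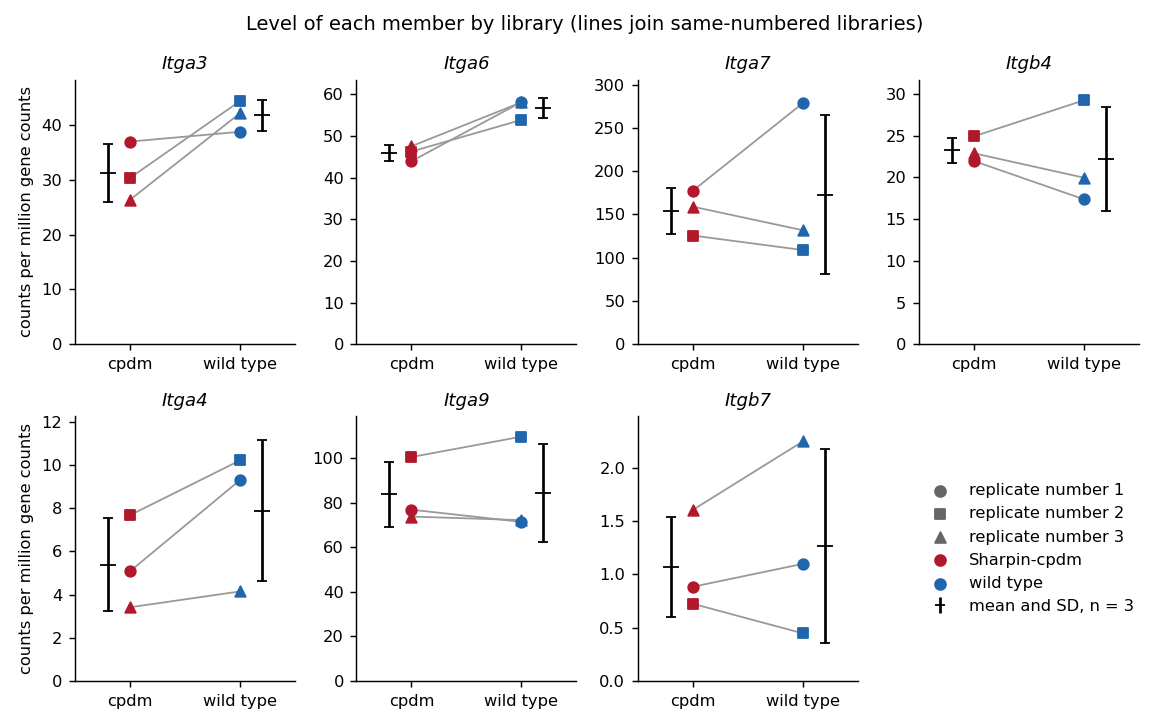
CPM (vertical axes, each starting at 0) of the 7 members in the 3 Sharpin-cpdm libraries (red, left) and the 3 wild-type libraries (blue, right). Lines join libraries with the same replicate number and black bars give the mean and SD. The 2 groups are apart for Itga3 and Itga6, and the lines of Itga4 slope the same way at 3 different levels.

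Among the laminin receptors, Itga6 had the narrowest spread. This subunit, which gives either the beta-1 or the beta-4 laminin receptor, stood at 43.9, 46.2 and 47.5 CPM in the 3 Sharpin-cpdm libraries, against 58.1, 53.8 and 58.1 CPM in the 3 of wild type. The highest Sharpin-cpdm library lay below the lowest wild-type library, and the libraries of each genotype lay close together. Fitted with the block, Itga6 had a log2 fold change of -0.32 ± 0.06 (SE, 3 libraries a group) and a 95% interval of -0.45 to -0.18. By edgeR its adjusted p with the block was 0.050015, just above the threshold, and without the block it was 1.00 at the same log2 fold change of -0.32 ± 0.08. The call turned with the setting: with the block, the adjusted p was 0.0473 with plain gene totals in place of TMM scaling and 0.0376 without the low-count filter. In the other fits with the block Itga6 was not called, at an adjusted p of 0.0532 with RLE factors, 0.0511 by limma-voom, 0.226 by DESeq2 and between 0.0668 and 0.215 with edgeR and 1 pair left out.

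Itga3, whose receptor with beta-1 binds the laminins of basement membranes, stood at 37.0, 30.4 and 26.4 CPM in the 3 Sharpin-cpdm libraries, against 38.8, 44.4 and 42.2 CPM in the 3 of wild type. The groups did not overlap, but library 1 of both genotypes lay close together. The log2 ratios within same-numbered pairs were -0.07, -0.55 and -0.68. With the block the log2 fold change was -0.44 ± 0.12 (95% interval -0.73 to -0.15), with 0.137 as its adjusted p by edgeR, and without the block it was -0.43 ± 0.15. Without pair 1, the pair with the ratio nearest 0, the value with the block was -0.62 ± 0.08 (edgeR adjusted p 0.00470), and Itga3 would be called. That fit called 673 of 13605 tested genes, against 337 of 13442 with all pairs.

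Itga7, the laminin-binding subunit typical of skeletal and smooth muscle, varied more between libraries than between genotypes. It stood at 177, 126 and 159 CPM in the 3 Sharpin-cpdm libraries, against 278, 109 and 132 CPM in the 3 wild-type libraries. Wild-type library 1 was the highest of the 6, and the groups overlapped. The log2 fold change with the block was -0.08 ± 0.17, with 0.858 as its adjusted p by edgeR and a 95% interval of -0.49 to 0.34. Wild-type library 1 set its sign: without that library the log2 fold change without the block was 0.33 ± 0.16, against -0.18 ± 0.34 with all 6 libraries, and without pair 1 the value with the block was 0.23 ± 0.05 (edgeR adjusted p 0.0583).

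In the same libraries the summed level of 8 skeletal muscle markers was, like Itga7, highest in library 1 and lowest in library 2 of each genotype, at 940.3, 617 and 749 CPM in the 3 Sharpin-cpdm libraries and at 1797, 595 and 619 CPM in the 3 wild-type libraries. Acta1 was the largest part of each sum, at 552, 341 and 380 CPM in Sharpin-cpdm and 1049, 348 and 335 CPM in wild type. Myog, a transcription factor of differentiating muscle cells, stood at 134, 90.7 and 161 CPM in the Sharpin-cpdm libraries and at 242, 79.3 and 108 CPM in the wild-type libraries, with wild-type library 1 again the highest. Within Sharpin-cpdm, Myog and Myod1 were highest in library 3, so single markers did not all share the order of the sum. Of the 8 markers 6 were tested and 0 were called with the block, and Pax7 and Myf5 were near 0, with at most 9 and 25 counts. The part of these transcripts in the level of Itga7 was not tested. In bulk cultures fewer cells of a type and less RNA per cell cannot be told apart.

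Itgb4, the partner of Itga6 in the hemidesmosome, had groups that overlapped. It stood at 22.0, 24.9 and 22.9 CPM in the 3 Sharpin-cpdm libraries, against 17.4, 29.3 and 20.0 CPM in the 3 of wild type. The wild-type libraries reached both above and below the Sharpin-cpdm libraries, and the pair ratios were 0.34, -0.23 and 0.20 on the log2 scale. The log2 fold change with the block was 0.08 ± 0.11, with 0.777 as its adjusted p by edgeR and a 95% interval of -0.20 to 0.35, and without the block it was 0.05 ± 0.22. The summed level of 14 epithelial markers ranked the Sharpin-cpdm libraries in another order than Itgb4 did and the wild-type libraries in the same order. These markers summed to 567, 464 and 247 CPM in the 3 Sharpin-cpdm libraries and to 395, 728 and 467 CPM in the 3 wild-type libraries. Of them 13 were tested and 0 were called with the block. A log2 fold change below 0 was found for 12 of the 13, against 50.5% of all tested genes. The median was -0.34, beside -0.44 for Itga3 and -0.32 for Itga6. Only 1 of the 13 was lower in all 3 pairs, as Itga3 and Itga6 were, and the sum was higher in Sharpin-cpdm in pair 1. Their part in the levels of Itgb4, Itga3 and Itga6 was not tested.

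**Figure D2:**
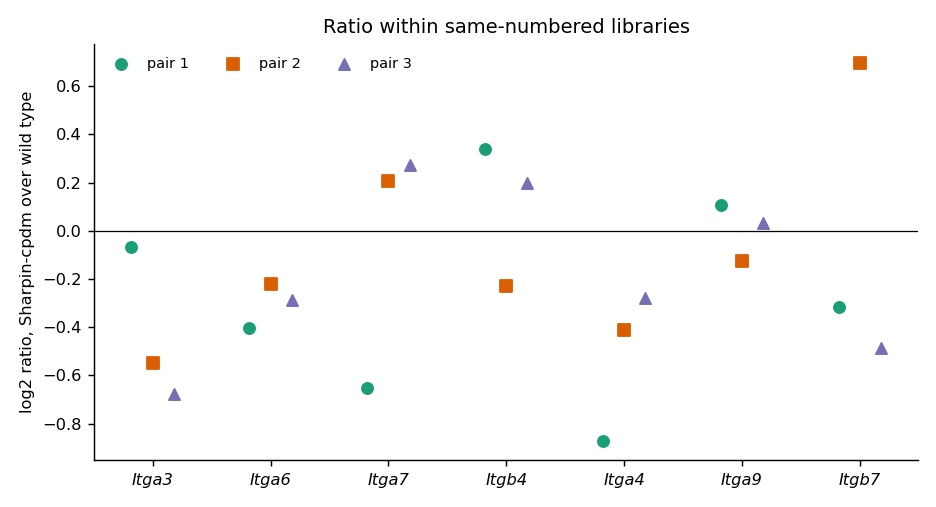
Log2 ratio of CPM, Sharpin-cpdm over wild type, within each of the 3 same-numbered pairs (one symbol per pair) for the 7 members. Itga3, Itga6 and Itga4 lie below 0 in all 3 pairs, and the other 4 members have pairs on both sides of 0.

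Of the alpha-4 and alpha-9 receptors, Itga4 was lower in all 3 pairs but spanned 2.25-fold within Sharpin-cpdm and 2.46-fold within wild type. It stood at 5.08, 7.68 and 3.41 CPM in the 3 Sharpin-cpdm libraries, against 9.31, 10.2 and 4.15 CPM in the 3 of wild type. The groups overlapped, since wild-type library 3 lay below Sharpin-cpdm libraries 1 and 2. The log2 fold change was -0.54 ± 0.16 with the block (95% interval -0.92 to -0.16, edgeR adjusted p 0.157) and -0.55 ± 0.44 without it.

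Itga9, which has only beta-1 as a partner, had the log2 fold change nearest 0. It stood at 76.8, 100.4 and 73.7 CPM in the 3 Sharpin-cpdm libraries, against 71.3, 109.5 and 72.1 CPM in the 3 wild-type libraries, and library 2 was the highest in both groups. The log2 fold change with the block was -0.01 ± 0.06, with 0.948 as its adjusted p by edgeR, and without the block -0.02 ± 0.23. Its 95% interval, -0.14 to 0.12, was the narrowest of the 7 members with the block.

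Itgb7, the beta subunit of lymphocyte homing receptors, had between 7 and 32 counts per library. This came to 0.884, 0.725 and 1.61 CPM in the 3 Sharpin-cpdm libraries, against 1.10, 0.447 and 2.25 CPM in the 3 of wild type. The exact Poisson 95% interval of the lowest library, 0.180 to 0.921 CPM, shows how few counts these are, and it covers counting error only. The log2 fold change was -0.24 ± 0.61 without the block and -0.21 ± 0.33 with it (edgeR adjusted p 0.795), with a 95% interval of -0.996 to 0.58 that included 0. The libraries also differed beyond counting error, since the Poisson interval of wild-type library 3, 1.54 to 3.18 CPM, lay above that of wild-type library 2.

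Leukocyte markers were uneven in the same libraries, and the T and B cell genes among them were near 0. Lyz2 ranged from 46.3 CPM in wild-type library 1 to 295 CPM in wild-type library 2. Ptprc, the common leukocyte antigen CD45, stood at 0.737, 2.97 and 3.61 CPM in the 3 Sharpin-cpdm libraries and at 1.10, 4.85 and 2.74 CPM in the 3 of wild type. The T and B cell genes Cd3e, Cd3g, Cd79a and Ms4a1 had at most 4 counts in any library. All 15 leukocyte markers together, led by the macrophage gene Lyz2, ranged from 136 to 349 CPM in the Sharpin-cpdm and from 69.1 to 401 CPM in the wild-type libraries, and 0 of the 10 tested were called with the block. Their part in the levels of Itga4 and Itgb7 was not tested.

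**Figure D3:**
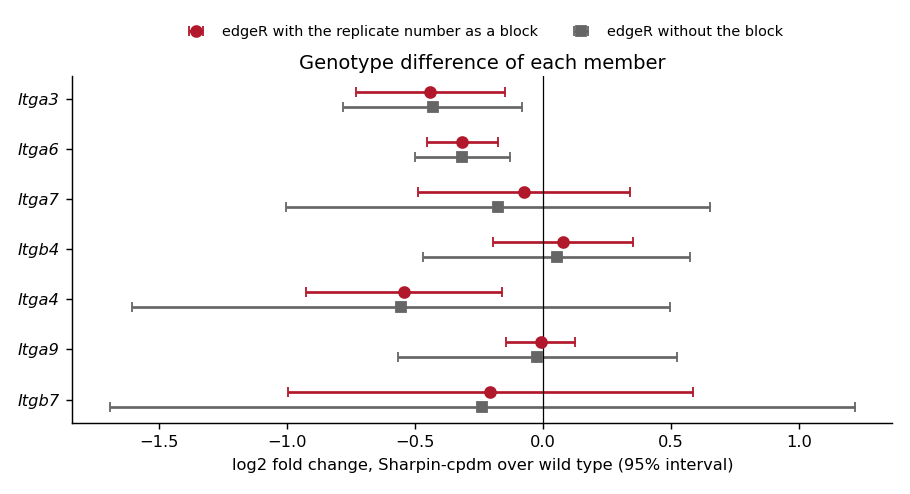
Log2 fold change of the 7 members, Sharpin-cpdm over wild type, with 95% intervals, from edgeR with the replicate number as a block (red circles) and without it (grey squares). Intervals not adjusted for the number of genes lie below 0 for Itga3 and Itga6 in both fits and for Itga4 with the block, and include 0 for the other members.

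Beside Itga3, Itga6 and Itga4, endothelial markers were lower in the Sharpin-cpdm cultures. Endothelium also expresses laminin-binding integrins. With the block, 14 of 17 endothelial markers fell and 0 rose, with a median log2 fold change of -0.79, and the 17 together ranged from 591 to 862 CPM in Sharpin-cpdm and from 782 to 1378 CPM in wild-type libraries. Of 10 fibroblast markers 3 fell and 0 rose, with a median of -0.23. Of 10 mural cell markers 3 fell and 1 rose, with a median of -0.33. Of 5 lymphatic endothelial markers 4 were tested and 1, Flt4, fell, and Ccl21a was listed at 0 counts in every library. The part of these cells in the levels of the members was not tested.

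Per length, the members spanned a wide range. In CPM per kilobase of merged exons, a scale that allows levels of different genes to be set side by side, Itga7 stood highest, at 19.0 ± 3.24 in Sharpin-cpdm and 21.4 ± 11.4 in wild type (mean ± SD, n = 3 each). Itga9 followed at 10.9 ± 1.90 in Sharpin-cpdm and 11.0 ± 2.84 in wild type. Itga3 stood at 5.47 ± 0.939 in Sharpin-cpdm and 7.32 ± 0.495 in wild type, and Itga6 at 5.09 ± 0.203 in Sharpin-cpdm and 6.28 ± 0.272 in wild type. Itgb4 stood at 3.32 ± 0.217 in Sharpin-cpdm and 3.16 ± 0.891 in wild type. Itga4 and Itgb7 were lowest, at 0.386 ± 0.154 and 0.387 ± 0.170 in Sharpin-cpdm and at 0.565 ± 0.234 and 0.457 ± 0.329 in wild type. Over the 6 libraries the ranges of Itga7 and Itga9, of Itga3 and Itga6, and of Itga4 and Itgb7 overlapped, so those neighbours were not separated, whereas the other neighbours in this order did not overlap. The longest annotated transcript in place of merged exons put Itga6 above Itga3, at a mean over the 6 libraries of 11.9 against 7.51.

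Itgb1, the beta-1 subunit shared by the 5 alpha members, was the most abundant integrin transcript on this scale, at 13.2, 19.7 and 13.4 times the sum of those 5 in the 3 Sharpin-cpdm libraries and 8.79, 18.9 and 12.2 times in the 3 wild-type libraries. Its log2 fold change with the block was 0.08 ± 0.05, with 0.501 as its adjusted p by edgeR. The laminin-binding alpha subunits made up 10.6%, 6.53% and 11.4% of all alpha-subunit transcripts per length in the 3 Sharpin-cpdm libraries, against 16.3%, 7.19% and 12.7% in the 3 wild-type libraries. The share was lower in Sharpin-cpdm in each pair, and the groups overlapped. It also depends on Itga5, the most abundant alpha subunit per length, whose log2 ratios within the pairs were 0.38, 0.12 and 0.18. Itga4 and Itga9 together made up between 3.29% and 3.81% in Sharpin-cpdm and between 3.40% and 4.07% in wild type, nearly all of it Itga9. The ratio of Itga6 to its partner Itgb4 per length was 1.55, 1.44 and 1.61 in the 3 Sharpin-cpdm libraries and 2.60, 1.43 and 2.26 in the 3 wild-type libraries, where wild-type library 2 lay below every Sharpin-cpdm library. These values depend on the length used. Per length of the longest transcript, the ratio of Itga6 to Itgb4 was 2.88, 2.67 and 2.99 in Sharpin-cpdm and 4.82, 2.65 and 4.19 in wild type. On that scale the laminin-binding share was 16.0%, 10.1% and 17.6% in Sharpin-cpdm and 24.3%, 10.7% and 18.7% in wild type. Itgb1 then stood at 8.41, 13.2 and 8.42 times the 5 alpha members in Sharpin-cpdm and at 5.32, 13.0 and 7.91 times in wild type, and in all 3 measures the order of the genotypes within each pair was as with merged exons.

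**Figure D4:**
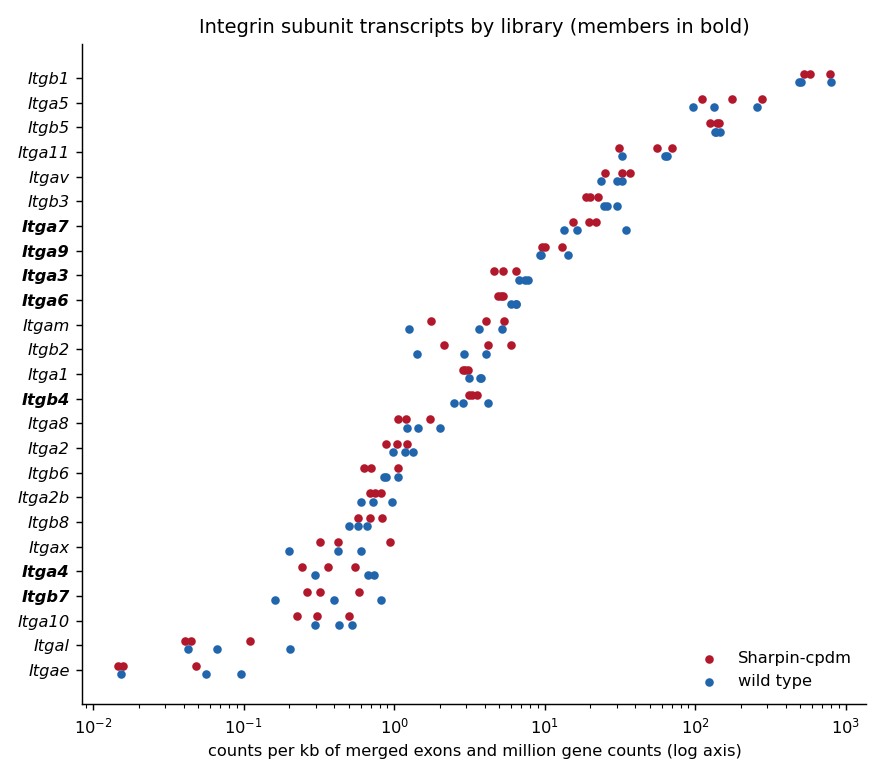
Level per length (horizontal log axis, CPM per kilobase of merged exons) of the integrin genes that had counts in all 6 libraries, with the 3 Sharpin-cpdm libraries in red above the 3 wild-type libraries in blue. The members, in bold, run from Itga7 at 13.5 to 34.4 down to Itgb7 at 0.161 to 0.812, and Itgb1 stands highest.

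Of the other integrins most were not called. With the block, 1 of 16 other tested integrins fell and 0 rose, and their median log2 fold change was -0.04. The one that fell was Itgb3, a partner of alpha-v, at 117, 132 and 110.3 CPM in the 3 Sharpin-cpdm libraries against 154, 177 and 147 CPM in the 3 wild-type libraries (log2 fold change -0.42 ± 0.04, edgeR adjusted p 0.0103). The groups of Itgb3 did not overlap, and the same held for 1 other, Itga1, a collagen receptor subunit (-0.27 ± 0.06, adjusted p 0.0784). The log2 fold changes of Itga3 and Itga6 were of about the same size as that of Itgb3, with larger standard errors.

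Of the 11 laminin chains, the ligands of the first 4 members, 1 fell with the block and 0 rose, with a median log2 fold change of -0.23, and 9 of 11 were below 0. Lama4, a chain of vessel and stromal basement membranes, fell by 0.37 on the log2 scale (SE 0.05, edgeR adjusted p 0.0253 with the block). Its levels were 453, 320 and 563 CPM in the 3 Sharpin-cpdm libraries, against 574, 392 and 762 CPM in the 3 wild-type libraries, lower in each pair, with groups that overlapped. Lamc1, the gamma chain of most laminins, had -0.19 ± 0.06 with an adjusted p of 0.167, and Lama2, the alpha chain of muscle laminin, had 0.19 ± 0.07 with an adjusted p of 0.227.

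Of 13 ligands of alpha-4 and alpha-9 receptors 12 were tested, 1 fell with the block and 0 rose, and their median log2 fold change was 0.10. Figf, which encodes the alpha-9 ligand VEGF-D, was the one that fell (-1.27 ± 0.06, edgeR adjusted p 0.00331 with the block). Its levels were 26.2, 8.34 and 72.4 CPM in the 3 Sharpin-cpdm libraries, against 61.5, 18.3 and 181 CPM in the 3 wild-type libraries. Figf was lower in each pair, but the groups overlapped, and without the block the log2 fold change was -1.31 ± 0.97. Fn1, fibronectin, stood at 9493, 12245 and 9897 CPM in the 3 Sharpin-cpdm libraries, against 8519, 9399 and 7144 CPM in the 3 wild-type libraries. Its groups did not overlap, and the log2 fold change of 0.32 ± 0.07 had an adjusted p of 0.0706. Tnc, tenascin-C, and Vcam1, with log2 fold changes of -0.000217 ± 0.07 and 0.12 ± 0.07, had groups that overlapped. Madcam1, the ligand of the alpha-4 and beta-7 pair, had at most 4 counts in a library and was not tested.

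Of 8 genes for tetraspanins and hemidesmosome proteins 0 were called with the block, and their median log2 fold change was -0.06. Cd151, the tetraspanin that associates with laminin-binding integrins, had -0.04 ± 0.06 with an adjusted p of 0.766, and Plec, the plectin that beta-4 binds, had 0.01 ± 0.08 with an adjusted p of 0.972. Of 6 genes for proteins that bind alpha-subunit tails, Sharpin alone fell and 0 rose. Pxn, paxillin, which binds the alpha-4 tail, had -0.07 ± 0.06 with an adjusted p of 0.585, and Sat1, which binds the alpha-9 tail, had -0.09 ± 0.07 with 0.566 as its adjusted p by edgeR with the block.

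**Figure D5:**
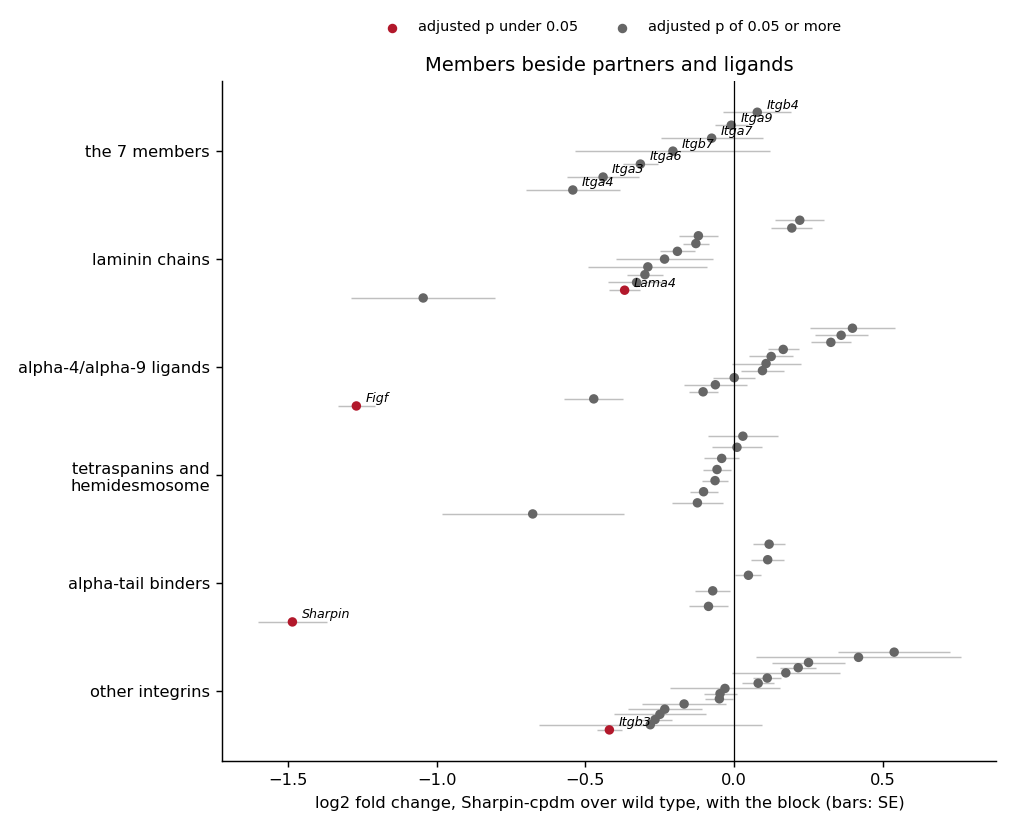
Log2 fold change with the block (horizontal axis, Sharpin-cpdm over wild type, bars give the SE) of the 7 members and of the tested genes in 5 lists of partners and ligands, red where the adjusted p was under 0.05. Lama4, Figf, Sharpin and Itgb3 are the red points, all lower in Sharpin-cpdm, and none of the members is red.

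The genes whose pattern over the 6 libraries was most like that of a member were sought among tested genes of at least 5 CPM, by the root mean square difference of log2 CPM about each gene's own mean. For Itga6 they were Taf1a, Arhgef7 and Dnajc21, at 0.0327 to 0.0551, which compares with a spread of Itga6 itself of 0.165. For Itga3 they were Palmd, Htra1 and Tnfrsf21, at 0.115 to 0.123, against a spread of 0.273. For Itga7 they were Akap6, Atp1b1 and Kbtbd10, at 0.0738 to 0.0838, against 0.421, and Akap6 was highest in wild-type library 1 as well, at 36.5 CPM. For Itgb4 they were Tmem200b, Nrp2 and Zfp367, and for Itga9 Zbtb1, Nkd2 and Ext1, each within 0.0811. The nearest genes of Itga4 were Tceal7, Wnt9a and St8sia2, at 0.183 or more, and those of Itgb7 were Ccdc3, Slc25a23 and Emb, at 0.121 or more, against spreads of 0.598 for Itga4 and 0.647 for Itgb7.

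In the mm10 build (GENCODE M21), Itga3 lies on the minus strand at chr11:95044474-95076801, Itga6 on the plus strand at chr2:71745616-71858416 and Itga4 on the plus strand at chr2:79255426-79333123. Itga7 lies at chr10:128933818-128958282, Itgb4 at chr11:115974709-116008412 and Itga9 at chr9:118606690-118901003, all on the plus strand, and Itgb7 on the minus strand at chr15:102215995-102231944. Exons of the antisense gene Cerkl overlap 1124 bases of Itga4 exons, and Cerkl had at most 2 counts in a library. Whether reads in the shared bases were counted for Itga4 is not known here, since the overlap settings are not given. A non-coding antisense gene overlaps 537 bases of Itgb4 exons, and whether reads were counted by strand is not known here. The counts are per gene, so that the cytoplasmic splice variants of the alpha-3, alpha-6 and alpha-7 subunits are not told apart.

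Upstream sequence is shown for members that were lower in all 3 pairs, whose values shared a direction; 2 of the 3, Itga3 and Itga4, had a RefSeq promoter entry (GRCm38.p6). The windows run from 250 to 88 bases before the RefSeq start, ahead of all annotated transcript starts of both genes, at chr11:95076802-95076964 on the minus strand and chr2:79255176-79255338 on the plus strand. Capitals mark the GC box GGGCGG.
Itga3: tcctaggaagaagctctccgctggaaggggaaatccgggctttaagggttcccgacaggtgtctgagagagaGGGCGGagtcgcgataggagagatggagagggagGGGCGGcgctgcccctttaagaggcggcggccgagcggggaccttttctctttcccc
Itga4: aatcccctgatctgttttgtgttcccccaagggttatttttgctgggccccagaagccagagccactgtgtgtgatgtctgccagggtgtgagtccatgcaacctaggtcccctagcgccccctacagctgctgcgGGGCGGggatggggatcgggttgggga
Searched on both strands, the GC box occurred at 2 places in the Itga3 window and at 1 in the Itga4 window, and 18.4% of the 32841 RefSeq windows of the same length and place held it. Neither window held the CCAAT box, its letters CCAAT, found in 21.9% of all windows. Nor did either hold the TATA box TATAAA, in 7.78%, the AP-1 site TGANTCA, in 4.47%, or the E-box CACGTG, in 3.22%. The bases between the window and the RefSeq start, where TATA and CCAAT boxes may lie, were not searched. The windows therefore cannot show whether the promoters of Itga3 and Itga4 lack these motifs. The motifs do not overlap one another here. Both windows were richer in G and C, at 62.6% and 60.1%, than the median window at 50.9%.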

How the data were processed

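For each library the authors deposited raw read counts by gene symbol; the 23337 genes were used and the 5 closing summary rows left out, which held between 48.8% and 51.2% of the entries of each table. The kit was TruSeq RNA v2, per the labels' protocols, and bcl2fastq 1.8.4, TopHat2 2.0.10, HTSeq 0.5.4p3 and the mm10 build are named in the submitters' processing notes. The gene annotation and the strand and overlap settings are not given in the sources used here.

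Fits used edgeR 4.0.16 under R 4.3.3, beside DESeq2 1.42.0 and limma 3.58.1. CPM are counts per 1000000 gene counts, without the summary rows. Genes were filtered with filterByExpr, which left 13442, and scaled by TMM factors of 0.969 to 1.03. Genotype was tested by the two-sided quasi-likelihood F-test of edgeR, with Benjamini-Hochberg adjustment over all tested genes. Each SE is the size of the log2 fold change over the root of its F. The script was tested on simulated data. Alternatives were other scaling, no filter, DESeq2, limma-voom, the replicate block and leaving out libraries or pairs.

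The labels give both groups the numbers 1 to 3 and do not say what a number marks. Deviations from the group means correlated across genes at 0.457, 0.809 and 0.737 for same-numbered libraries, and at -0.691 to 0.00676 for the other combinations, so equal numbers were treated as pairs on the evidence of the data, not of the labels. Each library is a separate pool of mice. No 2 libraries of a group agreed within sampling noise (chi-square per degree of freedom of 16.9 or more).

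The members and lists were chosen with earlier results of these data known. All 7 members are named, genes of the lists are named as partners, ligands or markers, and the genes most like each member are the 3 nearest with a mean of at least 5 CPM, computed from log2 CPM with a prior count of 2 and without predicted genes. Lengths are from GENCODE M21, where 22829 of the 23337 symbols matched 1 gene.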

Additional observations from a re-analysis of the deposited data

How the results depend on the processing

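The replicate block decided the count of called genes. edgeR called 0 genes without it under TMM, RLE or plain gene totals, without the low-count filter and without any single library, and DESeq2 called 10. With the block edgeR called 337, DESeq2 341 and limma-voom 379, and without 1 pair the count was between 44 (without pair 3) and 673 (without pair 1), with 128 without pair 2. With the block and other settings chosen after seeing the data, it was 336 with RLE factors, 365 with plain gene totals and 502 without the filter. At the main settings the block changed the call of no member, whereas with plain gene totals or without the filter Itga6 was called with the block and not without it.

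Itga3, Itga6 and Itga4 kept a negative log2 fold change under every alternative run. Without the block Itga3 lay between -0.56 and -0.31, Itga6 between -0.35 and -0.28 and Itga4 between -0.93 and -0.30. With it, Itga3 was called only without pair 1 (-0.62), where fewer pairs were fitted, and Itga6 only with plain gene totals (-0.30) and without the filter (-0.31). The other members changed sign when libraries were left out: without 1 library Itga7 ranged from -0.41 to 0.33, Itgb4 from -0.10 to 0.32, Itga9 from -0.21 to 0.23 and Itgb7 from -0.64 to 0.48. With the block and 1 pair left out the ranges were -0.23 to 0.23 for Itga7, -0.041 to 0.24 for Itgb4, -0.06 to 0.045 for Itga9 and -0.44 to 0.10 for Itgb7. With the block and plain gene totals Itga9 was at 0.00100. None of these 4 passed the threshold in any fit; the cause of the changes of sign was not tested.

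With TMM-scaled totals the within-pair ratios moved by less than the spread between pairs, though that of Itga9 in pair 3 was -0.01, against 0.03. Per length of the longest transcript, the mean level was 11.9 for Itga6, 40.7 for Itga7 and 0.680 for Itga4, against 5.68, 20.2 and 0.475 per merged exon length. Counts were lowest for Itgb7, at 7 to 32 per library, where counting error is largest.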
